A study of Saccharomyces cerevisiae S288C with 72 samples.

Results

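The enzymes of the pentose phosphate pathway in budding yeast, Saccharomyces cerevisiae, were followed at the transcript level from exponential growth on glucose into stationary phase. The 9 genes were the glucose-6-phosphate dehydrogenase gene ZWF1 and 4 isoenzyme pairs, each with a major copy and a minor copy: SOL3 and SOL4, GND1 and GND2, TKL1 and TKL2, and TAL1 and NQM1. They were taken by gene name and pair, and all 9 were found among the 5803 entries of the expression table. All 9 were also among the 5721 genes that passed a filter on low values.

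RNA-seq had been performed on 3 strains of S288C background. These were a wild type, a mutant lacking NDE1, NDE2 and NDI1 (nde1Δ nde2Δ ndi1Δ, hereafter the NADH dehydrogenase mutant) and a mutant lacking COX4 (cox4Δ). The deleted genes encode the NADH dehydrogenases that feed electrons into the respiratory chain and a subunit of cytochrome c oxidase, so the comparison asks how gene expression over a culture's life depends on respiration. All 3 strains grew in yeast nitrogen base with ammonium and 2% glucose, and each was sampled at 24 matched times from 0 to 58 h, with 1 library per strain and time (72 in all).

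The pathway branches off glycolysis at glucose 6-phosphate. Its oxidative arm, catalysed in turn by Zwf1, the 6-phosphogluconolactonases Sol3 and Sol4 and the 6-phosphogluconate dehydrogenases Gnd1 and Gnd2, yields NADPH and ribulose 5-phosphate. Its non-oxidative arm, with the transketolases Tkl1 and Tkl2 and the transaldolases Tal1 and Nqm1, interconverts sugar phosphates and returns carbon to glycolysis. In growing yeast the pathway is known as a main source of NADPH for biosynthesis and defence against oxidants, and of ribose and erythrose phosphates for nucleotides and aromatic amino acids. The minor copies are known mainly as genes induced outside rapid growth on glucose.

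Levels are given in TPM (a transcript's share of a library, corrected for transcript length), after each library was set to the same nuclear total. The course was divided into 3 windows, called early (0 to 8 h, 7 points), middle (9 to 16 h, 8 points) and late (18 to 58 h, 9 points). There were no replicate cultures, so p-values measure the spread between the time points of these cultures. A gene was called when its adjusted p was under 0.05 over all genes tested by limma and its change was at least 2-fold. The deleted genes set the strains apart as labelled: NDE1 had means of 150 to 1164 TPM by window in wild type and 1.13 to 1.35 in the mutant without it, and COX4 had 391 to 1007 in wild type and 1.39 to 1.91 in the cox4Δ mutant. TPM keeps no read numbers, so depth is unknown. The sample labels start with a letter and number code, read here as a plate position, which the labels do not state. Each strain has its own letters and changes letter between 13 and 14 h. If the letters are plate rows, row and strain, and row and that step in time, cannot be told apart. In bulk cultures, fewer cells with a transcript and less transcript per cell cannot be told apart either.

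The 300 bases that lie from 400 to 101 bases upstream of the start codon are shown for the 4 minor copies and ZWF1. They are shown because these 5 genes all rose with time and their upstream regions can be compared. The sequences are from the RefSeq R64 assembly, the build of sacCer3, on the strand of each gene. Capitals mark the stress response element AGGGG, or CCCCT where it lies on the other strand.

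GND2, chrVII:1004224-1004523, plus strand: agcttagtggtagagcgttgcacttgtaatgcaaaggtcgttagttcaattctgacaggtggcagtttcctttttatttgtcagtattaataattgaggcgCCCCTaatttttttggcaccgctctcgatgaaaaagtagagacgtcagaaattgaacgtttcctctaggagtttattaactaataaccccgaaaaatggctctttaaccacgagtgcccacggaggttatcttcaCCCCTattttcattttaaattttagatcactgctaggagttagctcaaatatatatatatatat

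SOL4, chrVII:985572-985871, plus strand: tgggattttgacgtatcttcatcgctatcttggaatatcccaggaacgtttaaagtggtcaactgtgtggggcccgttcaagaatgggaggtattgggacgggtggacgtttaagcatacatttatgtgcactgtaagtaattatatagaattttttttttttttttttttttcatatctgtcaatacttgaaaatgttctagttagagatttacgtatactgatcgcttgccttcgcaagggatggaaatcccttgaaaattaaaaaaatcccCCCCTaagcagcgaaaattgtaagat

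NQM1, chrVII:581537-581836, minus strand: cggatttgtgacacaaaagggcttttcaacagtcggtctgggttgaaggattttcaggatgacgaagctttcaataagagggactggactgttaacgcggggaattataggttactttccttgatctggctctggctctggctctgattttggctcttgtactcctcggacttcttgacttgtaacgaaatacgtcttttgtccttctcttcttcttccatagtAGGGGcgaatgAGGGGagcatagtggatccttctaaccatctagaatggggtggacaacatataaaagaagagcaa

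TKL2, chrII:476538-476837, minus strand: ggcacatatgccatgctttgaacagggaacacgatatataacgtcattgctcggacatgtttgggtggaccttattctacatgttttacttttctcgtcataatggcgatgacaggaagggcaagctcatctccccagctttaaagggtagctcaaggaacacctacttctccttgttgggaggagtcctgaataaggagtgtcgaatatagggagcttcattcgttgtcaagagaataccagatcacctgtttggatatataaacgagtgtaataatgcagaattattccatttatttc

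ZWF1, chrXIV:198044-198343, minus strand: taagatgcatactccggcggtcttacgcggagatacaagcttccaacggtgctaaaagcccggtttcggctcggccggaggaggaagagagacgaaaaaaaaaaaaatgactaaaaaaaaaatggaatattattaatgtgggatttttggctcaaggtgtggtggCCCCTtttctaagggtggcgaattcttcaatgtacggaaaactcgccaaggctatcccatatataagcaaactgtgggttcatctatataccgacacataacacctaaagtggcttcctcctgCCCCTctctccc

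The element AGGGG is known as the binding motif of Msn2 and Msn4, zinc finger activators of the general stress response. On either strand there were 2 matches for GND2, 2 for NQM1, 2 for ZWF1, 1 for SOL4 and none for TKL2. Among the major copies there was 1 match each for TAL1 and TKL1 and none for GND1 or SOL3. Of 6001 upstream windows of the same length in the genome, 23.5% held at least 1 match and 4.12% at least 2. The post-diauxic shift element TAGGGAT, searched on both strands, was found in none of the 9 windows and in 1.68% of all windows. The Stb5 site CGGNNTA, bound by a regulator of NADPH-producing genes, was found 2 times for ZWF1 and in none of the other 8 windows, against 19.7% of all windows with at least 1 match and 2.37% with at least 2. None of the 3 motifs contains another, and each was counted on its own. The windows of GND1, GND2, SOL3 and SOL4 also cover part of an annotated neighbour (RGD3, the tRNA gene YNCG0046W, MPC2 and CPD1). A match is a run of letters and was not tested for binding.

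The copies of a pair differ in sequence. Each of the 9 genes is a single coding segment with no overlapping annotated gene. Over the coding sequence, GND1 and GND2 were 79.1% identical in bases, TKL1 and TKL2 69.4%, TAL1 and NQM1 68.5%, and SOL3 and SOL4 58.5%. No pair shared a run of 31 bases, and the longest shared run was 20 bases, in the GND pair. Per the submitters' notes Salmon 0.9.1 was used, and how it assigned reads to near copies is not given in the sources used here.

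ZWF1 (YNL241C, chromosome XIV 196426 to 197943) encodes the committed first step of the oxidative arm and has no second copy. It rose with time in all 3 strains, in wild type from a mean of 270 ± 104 TPM (SD, 7 points) to 657 ± 118 (SD, 9 points). In wild type its lowest, median and highest levels were 145, 232 and 454 TPM in the early window and 490, 700 and 844 in the late window. Every late point was above every early point in wild type, while the ranges of the mutants overlapped. In the NADH dehydrogenase mutant the early values were 226, 265 and 421 TPM and the late values 409, 776 and 1170. In the cox4Δ mutant they were 122, 204 and 394 TPM early and 372, 624 and 905 late. The late-minus-early difference was 1.35 ± 0.23 (log2, SE, adjusted p = 5.7e-07) in wild type, 1.42 ± 0.23 (adjusted p = 8.8e-08) in the NADH dehydrogenase mutant and 1.44 ± 0.23 (adjusted p = 7.5e-08) in cox4Δ. The peak came at 32 h in wild type (844 TPM) but at 13 h in the NADH dehydrogenase mutant (1197 TPM) and at 14 h in cox4Δ (921 TPM). With only the last 3 points, 38 to 58 h, as the late window, the rise was 0.87 and 0.85 (log2) in the mutants and was no longer called. The likeness of the rise between strains depended on the scaling. With libraries scaled by the median of ratios to a reference, it was 1.32 in wild type, 2.17 in the NADH dehydrogenase mutant and 2.02 in cox4Δ.

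The lactonases that hydrolyse 6-phosphogluconolactone changed places. SOL3 (YHR163W, chromosome VIII 423724 to 424473) fell and SOL4 (YGR248W, chromosome VII 985972 to 986739) rose in all 3 strains. SOL3 in wild type had 212, 268 and 324 TPM (lowest, median, highest) early and 21.9, 49.4 and 64.0 late, with no overlap. SOL4 in wild type had 14.3, 30.0 and 146 TPM early and 131, 183 and 272 late, and overlapped through the point at 8 h. The late-minus-early difference of SOL3 was -2.59 ± 0.38 (log2, adjusted p = 2.2e-08) in wild type, -1.86 ± 0.38 (adjusted p = 1.2e-05) in the NADH dehydrogenase mutant and -1.77 ± 0.38 (adjusted p = 2.9e-05) in cox4Δ. SOL4 rose by 2.27 ± 0.31 (adjusted p = 4e-09), 2.78 ± 0.31 (adjusted p = 5.8e-12) and 2.79 ± 0.31 (adjusted p = 5.9e-12) in the same order. In wild type SOL3 reached its lowest level, 21.9 TPM, at 18 h and then stood at 64.0 TPM at 58 h. In the mutants the lowest SOL3 levels came earlier, 24.5 TPM at 13 h and 26.3 TPM at 14 h, and the late windows ran from 49.7 to 89.4 and from 36.2 to 117 TPM.

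The dehydrogenases that make the second NADPH of the pathway showed the same exchange over a wider range. GND1 (YHR183W, chromosome VIII 470960 to 472429) is the major form on glucose. In wild type it had 453, 573 and 900 TPM early, 152, 472 and 525 in the middle window and 106, 155 and 199 late. GND2 (YGR256W, chromosome VII 1004624 to 1006102) had 3.31, 6.98 and 204 TPM early, 344, 606 and 958 in the middle window and 263, 330 and 418 late. For both genes the late points did not overlap the early points in any strain. Without the NADH dehydrogenases GND1 went from a median of 669 TPM early to 83.1 late and GND2 from 7.82 to 328. In cox4Δ GND1 went from a median of 523 to 74.4 TPM and GND2 from 5.14 to 252. The late-minus-early difference of GND1 was -2.10 ± 0.38 (log2, adjusted p = 2.2e-06) in wild type, -3.03 ± 0.38 (adjusted p = 1.4e-10) in the NADH dehydrogenase mutant and -2.76 ± 0.38 (adjusted p = 2.2e-09) in cox4Δ. GND2 rose by 4.63 ± 0.44 (adjusted p = 2.1e-14), 4.94 ± 0.44 (adjusted p = 3.1e-15) and 5.09 ± 0.44 (adjusted p = 1e-15). Between its lowest and highest single points GND2 spanned 290-fold in wild type.

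Transketolase, a thiamine pyrophosphate enzyme that moves 2-carbon units, is encoded by TKL1 (YPR074C, chromosome XVI 692796 to 694838) and TKL2 (YBR117C, chromosome II 474392 to 476437). TKL2 was the highest of the minor copies in every strain at its peak, with 1255 TPM at 14 h in wild type, 1179 at 13 h in the NADH dehydrogenase mutant and 1567 at 14 h in cox4Δ. In wild type TKL2 had 6.24, 11.0 and 132 TPM early, 355, 793 and 1255 in the middle window and 227, 390 and 775 late. TKL1 had 307, 429 and 616 TPM early, 108, 277 and 423 in the middle window and 66.7, 137 and 215 late. The copies drew together again at the end of the wild-type culture, where the TKL2 share of both had its late minimum of 53.2%. TKL1 went from a median of 460 TPM early to 59.6 late in the NADH dehydrogenase mutant and from 392 to 47.9 in cox4Δ. The late-minus-early difference of TKL1 was -1.69 ± 0.48 (log2, adjusted p = 0.0016) in wild type, -3.03 ± 0.48 (adjusted p = 7.1e-08) in the NADH dehydrogenase mutant and -2.87 ± 0.48 (adjusted p = 2.8e-07) in cox4Δ. TKL2 rose by 4.57 ± 0.47 (adjusted p = 4.1e-13), 5.24 ± 0.47 (adjusted p = 4.1e-15) and 5.29 ± 0.47 (adjusted p = 2.9e-15). With the late window cut to 38 to 58 h the difference of TKL1 in wild type was -1.17 and was no longer called.

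TAL1, the main transaldolase gene, was the one major copy not called lower from early to late in wild type, although it was in both mutants. TAL1 (YLR354C, chromosome XII 836350 to 837357) had 589, 650 and 964 TPM early and 343, 402 and 471 late in wild type. NQM1 (YGR043C, chromosome VII 580435 to 581436), a transaldolase paralog induced outside growth on glucose, had 6.70, 12.0 and 412 TPM early, 490, 740 and 828 in the middle window and 415, 652 and 753 late. Both genes had late ranges clear of the early ranges in all 3 strains, NQM1 in wild type by only 415 against 412 TPM. The late-minus-early difference of TAL1 was -0.83 ± 0.26 (log2, adjusted p = 0.0048) in wild type, short of the 2-fold threshold. TAL1 fell in both mutants, at -1.58 ± 0.26 (adjusted p = 2.5e-07) in the NADH dehydrogenase mutant and -1.48 ± 0.26 (adjusted p = 1.2e-06) in cox4Δ. With libraries scaled by the median of ratios to a reference, the TAL1 differences in the mutants were -0.82 and -0.90, so neither was called. NQM1 rose by 4.85 ± 0.45 (adjusted p = 1.3e-14) in wild type, 4.72 ± 0.45 (adjusted p = 4.2e-14) in the NADH dehydrogenase mutant and 5.10 ± 0.45 (adjusted p = 3.1e-15) in cox4Δ. Without the point at 8 h the wild-type rises were 5.56 for NQM1 and 5.28 for GND2.

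**Figure D1:**
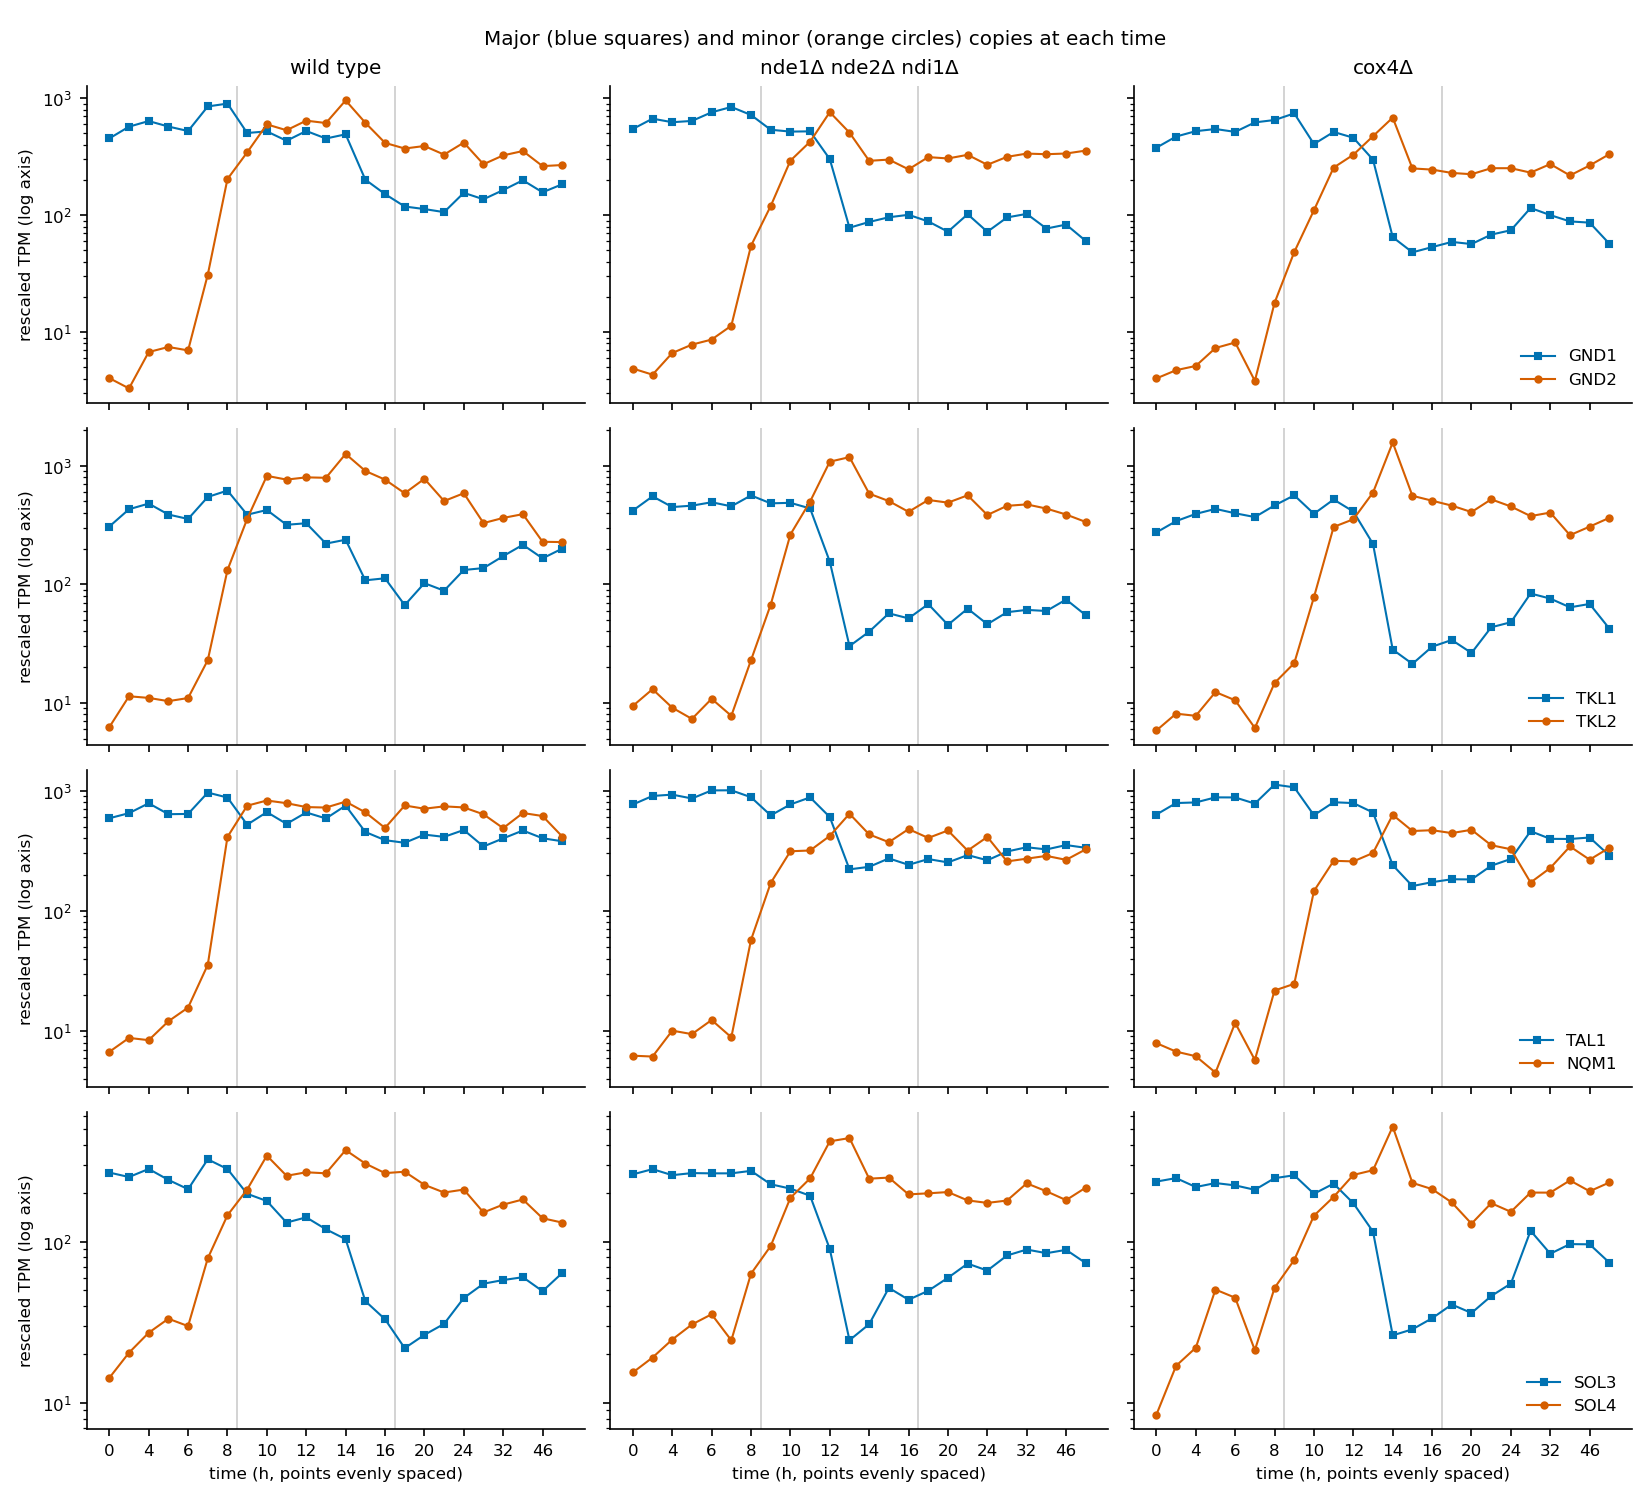
Rescaled TPM (log axis) of the major copy (blue squares) and minor copy (orange circles) of each pair at each of 24 times, by strain, with 1 library per point and grey lines between the windows. The minor copies climb from 78.9 TPM or less at 0 to 7 h and first exceed the major copies between 9 and 14 h.

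Counted over the 9 genes, the same 5 were called higher between the early and late windows in each strain: ZWF1 and the 4 minor copies. The major copies were called lower in 3 of 4 cases in wild type and 4 of 4 in each mutant. Over all genes tested, 18.4% were called higher and 14.7% lower in wild type, 12.2% and 40.0% in the NADH dehydrogenase mutant, and 13.7% and 34.3% in cox4Δ. The median of all genes moved by 0.05 (log2) in wild type, -0.72 in the NADH dehydrogenase mutant and -0.54 in cox4Δ, against -1.90, -2.44 and -2.27 for the median of the 4 major copies. Under median-of-ratios scaling the calls over all genes became 1281 higher and 1168 lower instead of 698 and 2288 in the NADH dehydrogenase mutant, and 1258 and 1149 instead of 782 and 1961 in cox4Δ. The scalings differ by 0.69 and 0.53 in the median of all genes of the 2 mutants, and GND1, TKL1 and SOL3 were called lower under both.

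The exchange was already present in the middle window. Against the early window, the same 5 genes were called higher in each strain, where 12.3% of all genes were called higher in wild type, 10.4% in the NADH dehydrogenase mutant and 10.9% in cox4Δ. TKL2 rose by 5.47 ± 0.48 (log2) in wild type, GND2 by 5.41 ± 0.45, NQM1 by 5.04 ± 0.47 and SOL4 by 2.89 ± 0.32. Among the major copies SOL3 alone was called lower in wild type, at -1.36 ± 0.39, all 4 in the NADH dehydrogenase mutant, and GND1, TKL1 and SOL3 in cox4Δ. Of all genes, 11.0%, 27.8% and 18.2% were called lower in these comparisons. In wild type GND1 and SOL3 fell further from the middle to the late window, at -1.37 ± 0.36 (adjusted p = 0.003) and -1.23 ± 0.37 (adjusted p = 0.0082), where 1.80% of all genes were called lower. No member was called higher by limma in that comparison, in which 4.21% of all genes were called higher. Neither fall was called with the last 3 points as the late window, and with a middle window of 9 to 13 h the calls of SOL3 in wild type and of GND1, TKL1 and SOL3 in cox4Δ against the early window were lost.

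The share of the minor copy among both copies gives the exchange on a scale that no library scaling can move. The GND2 share in wild type had 0.575%, 1.29% and 18.5% (lowest, median, highest) early and 59.3%, 66.6% and 77.6% late. The TKL2 share had 2.00%, 2.60% and 17.6% early and 53.2%, 70.6% and 89.8% late. The NQM1 share had 1.06%, 1.85% and 32.0% early and 52.3%, 60.6% and 67.2% late. The SOL4 share, the highest early by its median, had 5.07%, 12.1% and 34.1% early and 67.2%, 75.2% and 92.5% late. In the mutants the late GND2 share ran from 76.3% to 85.6% without the dehydrogenases and from 66.7% to 85.4% without Cox4. The late TKL2 share ran from 83.9% to 91.5% and from 80.2% to 93.9%. For SOL4 the late range was 67.03% to 80.07% and 63.29% to 81.11%. For NQM1 it was 42.97% to 64.84% and 27.21% to 72.15%, so TAL1 was again the larger copy at some late times in both mutants. All late shares lay above all early shares within each strain.

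All 24 tests of the ratio of minor to major copy between windows within a strain passed an exact 2-sided permutation test, with an adjusted p of 0.00067 in each (of 52 ratio tests in all, 34 passed). The exact permutation p was 0.00031 for each middle window and 0.00017 for each late window, the smallest these window sizes allow. Any complete separation of 2 windows gives these values, and points of a course that trends are not independent draws. In wild type the late ratio was 106-fold the early ratio for GND2:GND1, 76.7-fold for TKL2:TKL1, 51.3-fold for NQM1:TAL1 and 29.1-fold for SOL4:SOL3. Without the NADH dehydrogenases these were 250-fold, 308-fold, 78.9-fold and 24.9-fold. In cox4Δ they were 231-fold, 285-fold, 95.7-fold and 23.7-fold. The SOL pair had the smallest change of ratio in every strain. The ratios were taken with 1 TPM added to each copy, which understates the change of low copies. The point at 8 h lowered the wild-type folds more than those of the mutants. Without it they were, in the same order of pairs, 157.5, 101.6, 81.1 and 36 in wild type. They were 326.7, 337.8, 102.5 and 28.3 in the NADH dehydrogenase mutant and 260.1, 297.3, 105.9 and 26.1 in cox4Δ.

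**Figure D2:**
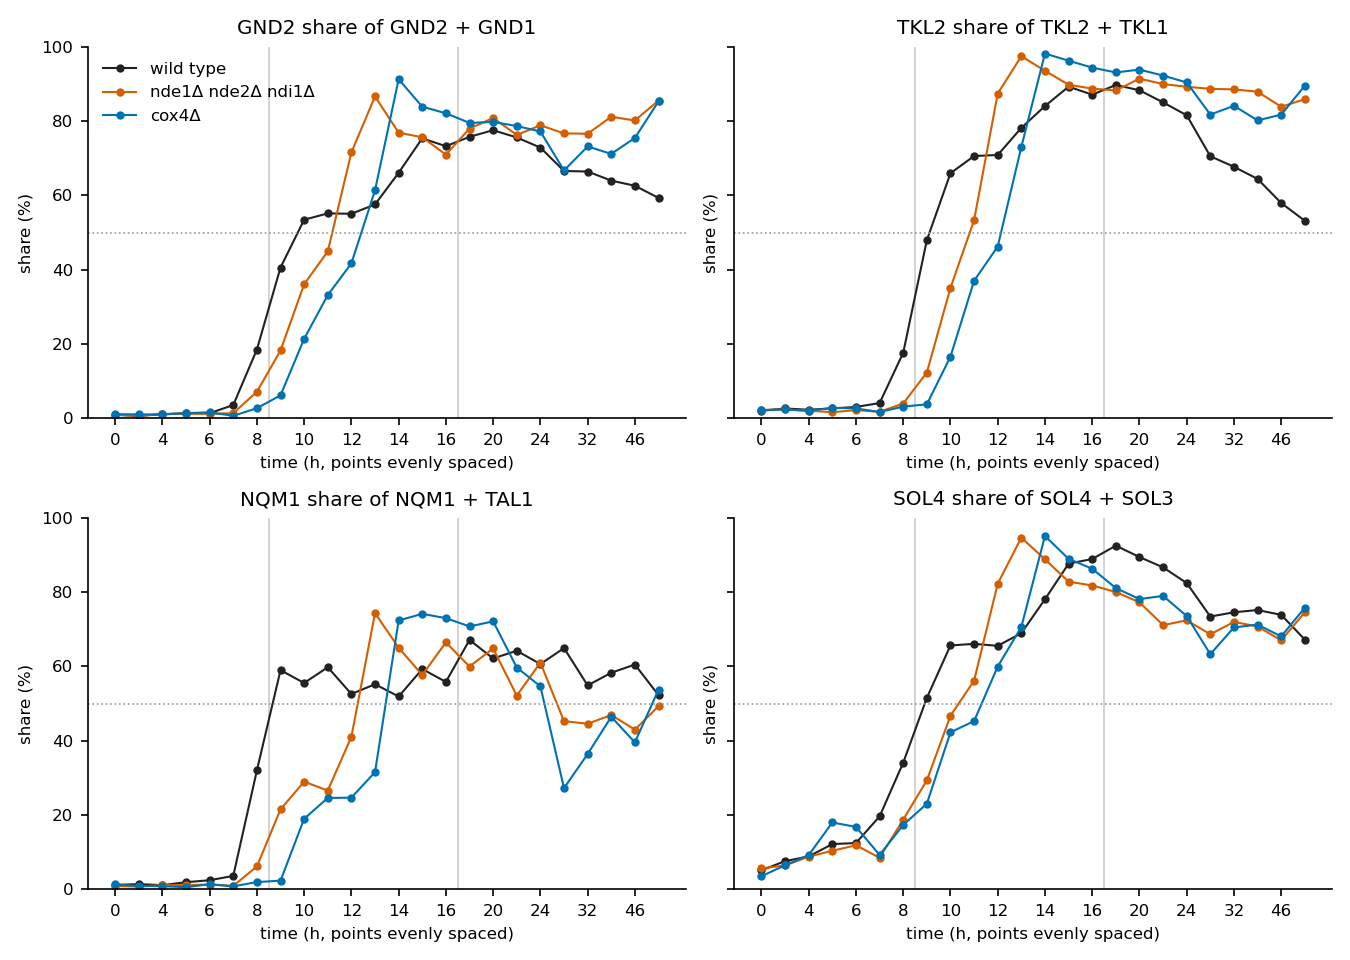
Share of the minor copy in the summed TPM of its pair (%) at each time, by strain, with 1 library per point, grey lines between the windows and a dotted line at 50%. The NQM1 share returns to the 50% line or below it in both mutants late in the course, while the TKL2 share stays at 80.2% or above there.

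The order in time was set against HXT3, a low-affinity hexose transporter gene used as a mark of glucose in the medium. The last time at which HXT3 had at least 1000 TPM was 14 h in wild type, 11 h in the NADH dehydrogenase mutant and 12 h in cox4Δ. In wild type NQM1 and SOL4 first exceeded their major copies at 9 h and GND2 and TKL2 at 10 h, 4 to 5 h before that mark. In the NADH dehydrogenase mutant TKL2 and SOL4 crossed at 11 h, GND2 at 12 h and NQM1 at 13 h. In cox4Δ SOL4 crossed at 12 h, GND2 and TKL2 at 13 h and NQM1 at 14 h. Against this mark, chosen after the values were seen, the minor copies crossed from 0 to 2 h after it in the mutants. By the mark first set, the first time from 9 h with HXT3 under 1000 TPM, which came at 15 h in wild type, 12 h in the NADH dehydrogenase mutant and 10 h in cox4Δ, TKL2 and SOL4 crossed before the mark in the NADH dehydrogenase mutant, so the order in that mutant depends on the mark. These values describe 3 cultures, with no test. NQM1 was among the first to cross in wild type and the last in both mutants, where it exceeded TAL1 at only 8 of the 13 and 8 of the 12 times from its crossing on.

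In wild type the minor copies rose before the steepest falls of 3 of the 4 major copies on the log2 scale. All 4 minor copies passed 100 TPM by 8 h, and the largest single step of NQM1 was from 35.5 to 412 TPM between 7 and 8 h. Between 8 and 9 h, while the minor copies were rising, TAL1 fell from 876 to 521 TPM, its largest step down on either scale. GND1 fell from 900 (899.9) to 505 TPM, TKL1 from 616 to 386 and SOL3 from 282 to 198 at the same step, the largest falls of each in TPM. Between 14 and 15 h GND1 fell from 491 to 201 TPM, TKL1 from 237 to 108 and SOL3 from 104 to 42.8, the largest falls of each on the log2 scale. From 10 to 14 h both copies of each pair stood at 104 TPM or more in wild type. Without the NADH dehydrogenases the largest falls on the log2 scale were between 12 and 13 h for all 4 major copies, from 302 to 78.1 TPM for GND1, from 155 to 30.1 for TKL1 and from 603 to 221 for TAL1. In cox4Δ they were between 13 and 14 h for all 4, from 298 to 64.9 TPM for GND1, from 219 to 28.2 for TKL1 and from 658 to 240 (240.0) for TAL1. At that step the label letter, read as a plate row, also changes. The minor copies passed 100 TPM at 9 to 10 h in the NADH dehydrogenase mutant and at 10 to 11 h in cox4Δ.

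The summed level of both copies was highest in the middle window at each step in wild type, by its median. For GND1 and GND2 together the median in wild type was 580 TPM early, 1016 in the middle window and 489 late. The sum was highest at 14 h, 1450 TPM, when both copies were expressed. For TKL1 and TKL2 the medians were 440, 1045 and 591 TPM, and for TAL1 and NQM1 659, 1313 and 1118. The sum of SOL3 and SOL4 had medians of 283, 398 and 233 TPM. In the NADH dehydrogenase mutant the late medians were 411 TPM for the GND pair, 516 for the TKL pair, 618 for the TAL1 and NQM1 pair and 263 for the SOL pair, and in cox4Δ 327, 459, 627 and 286. The late sum of TAL1 and NQM1 did not overlap between wild type (794 to 1196 TPM) and either mutant (569 to 719 and 589 to 740 TPM). On the log2 scale that sum was on average -0.70 from wild type in each mutant, and the median of all genes in the same window was -0.65 and -0.61. Sums were not tested.

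**Figure D3:**
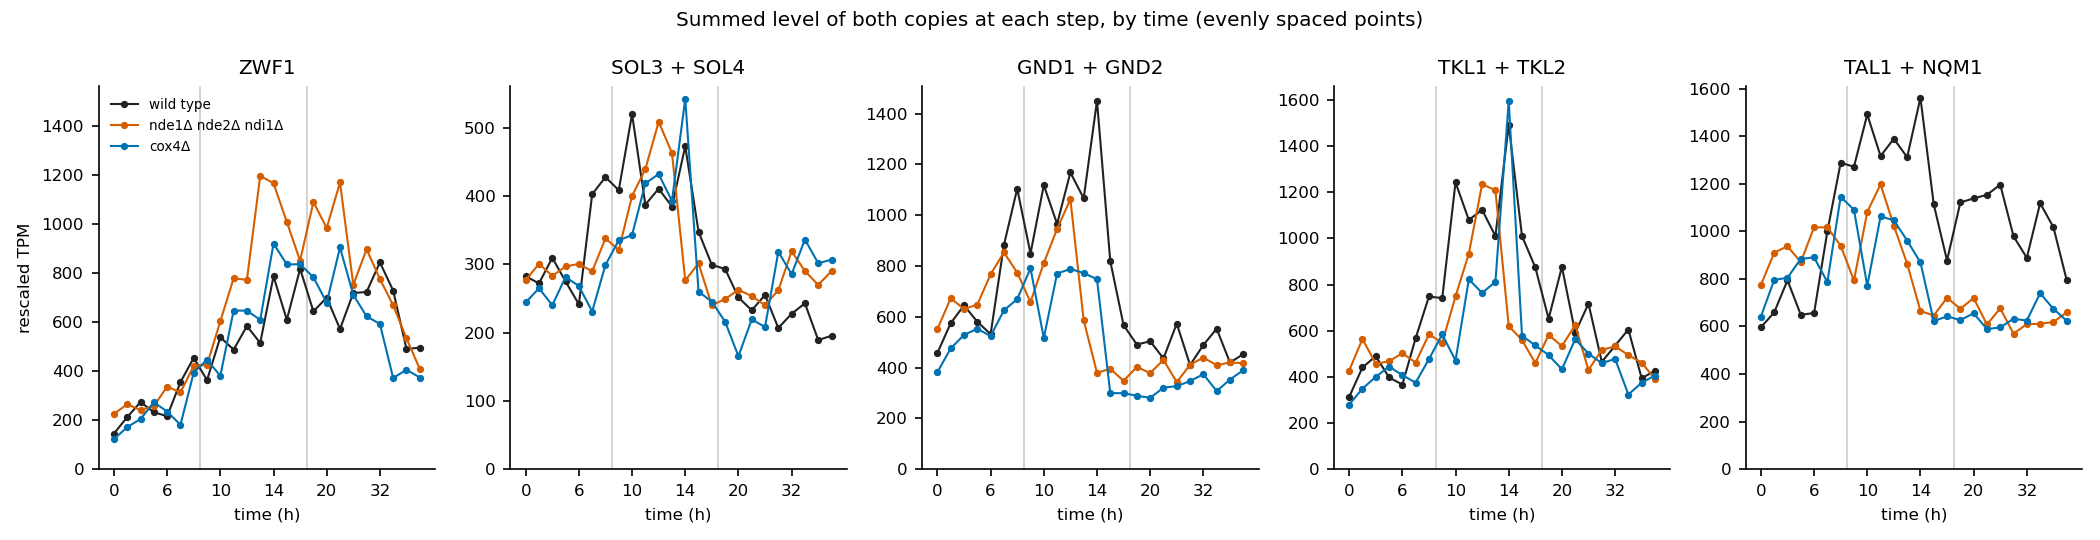
Rescaled TPM of ZWF1 and of the sum of both copies at each other step, by time and strain, with 1 library per point and grey lines between the windows. The TAL1 and NQM1 sum of wild type lies above both mutants at every late time, from 794 to 1196 TPM against 569 to 740, in a window where the median of all genes was also lower, at -0.65 and -0.61 (log2).

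Few members were called between strains within a window, and no such difference reached the 4.57 or more (log2) by which GND2, TKL2 and NQM1 rose from early to late. In the early window limma called no member between the NADH dehydrogenase mutant and wild type, with 1 of 9 at an unadjusted p under 0.05, where 0.192% of all genes were called higher and 0.0524% lower. In cox4Δ NQM1 was lower than wild type, with a difference of -1.25 ± 0.33 (log2, adjusted p = 0.021, lower at 6 of 7 times), where 0.297% of all genes were called lower and 0.472% higher. That call rests on the point at 8 h, 21.7 TPM in cox4Δ against 412 in wild type: without 8 h the difference was -0.76 (adjusted p = 0.33). It was also not called under median-of-ratios scaling (-1.20, adjusted p = 0.052) or without the time block (adjusted p = 0.49).

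In the middle window 3 minor copies were lower in cox4Δ than in wild type, and 2.32% of all genes were called lower and 0.507% higher. The difference was -1.58 ± 0.31 (log2, adjusted p = 2e-04) for NQM1, lower at 8 of 8 times, -1.27 ± 0.26 (adjusted p = 0.00038) for GND2, lower at 8 of 8 times, and -1.40 ± 0.31 (adjusted p = 0.00069) for TKL2, lower at 7 of 8 times. The cox4Δ values ran from 24.7 to 629 TPM for NQM1 and from 48.4 to 683 for GND2, and overlapped wild type in both. With a middle window of 9 to 13 h the differences of NQM1 and TKL2 were -2.34 and -2.05. In the NADH dehydrogenase mutant the differences of the same genes were -0.95 ± 0.31, -0.80 ± 0.26 and -0.81 ± 0.31, each under 2-fold. No member was called there by limma, and 3.67% of all genes were called lower and 0.787% higher. At an unadjusted limma p under 0.05, with no limit on fold, there were 7 of 9 members. The share of all genes at that level was not counted in this or any other window, so such counts have no background. The median of all genes was -0.27 in cox4Δ and -0.34 in the NADH dehydrogenase mutant in this window. Both mutants were compared with the same wild-type libraries. Strains were compared at the same hours, although the last time with HXT3 at 1000 TPM or more differed. It was 14 h in wild type, 11 h in the NADH dehydrogenase mutant and 12 h in cox4Δ. TKL2 in cox4Δ went from 21.6 TPM at 9 h to 1567 at 14 h, against 355 and 1255 in wild type. A shift in time and a lower level therefore cannot be told apart here.

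In the late window TKL1 was the only member called in either mutant, among 29.4% of all genes called lower and 2.71% higher in the NADH dehydrogenase mutant and 26.3% and 2.46% in cox4Δ. TKL1 had 66.7, 137 and 215 TPM in wild type, 45.5, 59.6 and 74.4 in the NADH dehydrogenase mutant and 26.3, 47.9 and 83.6 in cox4Δ. Its difference from wild type was -1.18 ± 0.27 (log2, adjusted p = 0.00012), lower at 8 of 9 times, and -1.38 ± 0.27 (adjusted p = 1.4e-05), lower at 9 of 9 times. The median of all genes was -0.65 and -0.61 in these comparisons, and under median-of-ratios scaling TKL1 differed by -0.48 (adjusted p = 0.074) and -0.73 (adjusted p = 0.0073) and was not called. That scaling called 522 genes higher and 390 lower instead of 155 and 1681 in the NADH dehydrogenase mutant, and 458 and 388 instead of 141 and 1504 in cox4Δ. GND1 differed by -0.81 ± 0.22 and -0.92 ± 0.22 and was lower at 9 of 9 times in both mutants, short of the 2-fold threshold. SOL3 differed by 0.75 ± 0.19 and 0.62 ± 0.19, higher at 9 of 9 times in both and under 2-fold, and passed the threshold under median-of-ratios scaling, at 1.45 and 1.27. NQM1 differed by -0.94 ± 0.29 and -0.998 ± 0.29 and was lower at 9 of 9 times in both, without a call. Under median-of-ratios scaling most of both differences was gone, with GND1 at -0.10 and -0.27 and NQM1 at -0.23 and -0.34. Late in the course limma called no member between cox4Δ and the NADH dehydrogenase mutant, with 1 of 9 (ZWF1, cox4Δ minus the other mutant -0.42 ± 0.13, named after its value was seen) at an unadjusted p under 0.05, where 0.21% of all genes were called higher and 0.0874% lower.

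**Figure D4:**
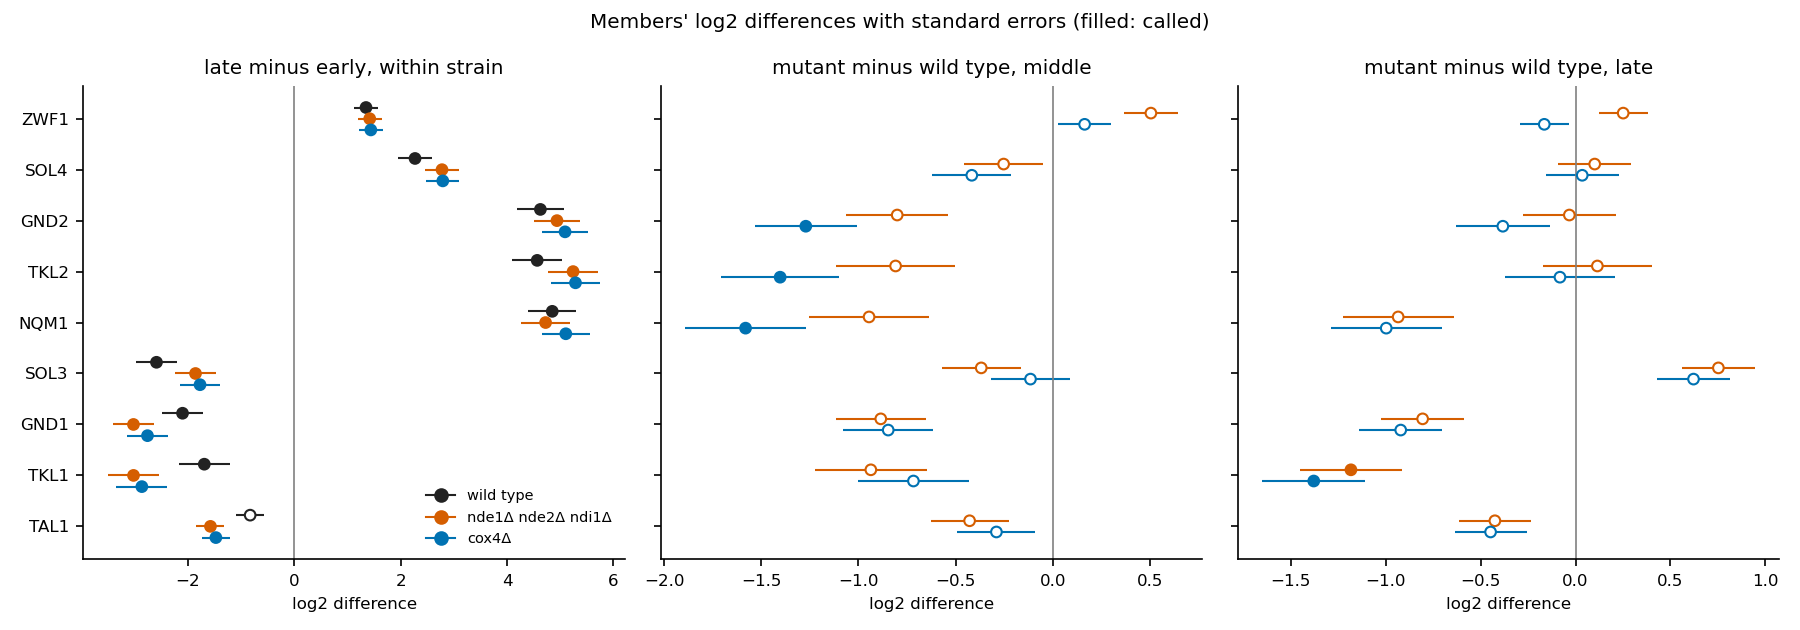
Log2 differences of the 9 members with their standard errors: late minus early within each strain (left), and each mutant minus wild type in the middle (centre) and late (right) windows. Filled points were called. The rises of GND2, TKL2 and NQM1 in time, 4.57 to 5.29, are the widest, and the largest strain difference is -1.58 (NQM1 in cox4Δ), wider than the changes of ZWF1 (1.35 to 1.44) in time.

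The change from early to late was itself compared between strains. TKL1 fell further than in wild type, with an interaction of -1.33 ± 0.41 (log2, adjusted p = 0.0041) in the NADH dehydrogenase mutant and -1.17 ± 0.41 (adjusted p = 0.012) in cox4Δ, and it was the only member called. Of all genes, 33.5% and 26.1% were called lower and 2.80% and 3.51% higher in these tests, with medians of -0.72 and -0.56. Under median-of-ratios scaling TKL1 differed by -0.56 and -0.58 and was not called, while SOL3, GND2, TKL2 and SOL4 were called higher in both mutants. All genes then split into 568 higher and 440 lower in the NADH dehydrogenase mutant, instead of 160 and 1917, and 550 and 444 in cox4Δ, instead of 201 and 1492. Without the time block the TKL1 difference kept its size but not its call (adjusted p = 0.087 and 0.15).

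The ratios of minor to major copy, in which library scaling nearly cancels, differed between strains in the late window in opposite directions by pair. GND2:GND1 was higher than in wild type by 0.77 (log2) in the NADH dehydrogenase mutant and 0.54 in cox4Δ, at 9 of 9 times in each (exact permutation p = 0.0039, the smallest that 9 pairs allow, adjusted p = 0.0075). TKL2:TKL1 was higher by 1.30 at 8 of 9 times (exact permutation p = 0.0078, adjusted p = 0.015) and by 1.30 at 9 of 9 times (exact permutation p = 0.0039, adjusted p = 0.0075). SOL4:SOL3 differed by -0.65 (exact permutation p = 0.031, adjusted p = 0.048) and -0.59 (exact permutation p = 0.023, adjusted p = 0.039), lower at 8 of 9 times in each. NQM1:TAL1 differed by -0.51 in the NADH dehydrogenase mutant, lower at 7 of 9 times (exact permutation p = 0.020, adjusted p = 0.034), and by -0.55 in cox4Δ, lower at 6 of 9 times (exact permutation p = 0.098, adjusted p = 0.13). The size of these differences depended on the part of the late window. Over the times up to 32 h GND2:GND1 differed by 0.40 and 0.25, TKL2:TKL1 by 0.90 and 0.99 and SOL4:SOL3 by -0.93 and -0.87, and none passed. GND2:GND1 was higher at all of these times in both mutants, with an adjusted p of 0.051 by exact permutation. That is the smallest p so few points allow, so passing was out of reach there. Over the last 3 points, which cannot pass either, these ratios differed by 1.51 and 1.11, 2.10 and 1.91, and -0.09 and -0.02. Without the pairing by time SOL4:SOL3 did not pass in either mutant (adjusted p = 0.078 and 0.13).

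In the early window TKL2:TKL1 differed in the NADH dehydrogenase mutant by -0.71 (log2), lower at 6 of 7 times (exact permutation p = 0.031, adjusted p = 0.048), and NQM1:TAL1 by -1.13, lower at 7 of 7 times (exact permutation p = 0.016, adjusted p = 0.028). In cox4Δ NQM1:TAL1 differed by -1.45, lower at 6 of 7 times (exact permutation p = 0.031, adjusted p = 0.048). Without 8 h, when the wild-type minor copies had begun to rise, these 3 differences were -0.44, -0.85 and -0.93 and none passed. NQM1:TAL1 in the NADH dehydrogenase mutant was still lower at every remaining time. Its adjusted p of 0.051 by exact permutation came from the smallest p so few points allow. No ratio passed between strains in the middle window, nor between the mutants in the late window.

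The members fell into 2 groups by their course over the 72 libraries. Pearson's r of the log2 level was between 0.97 and 0.98 for each of GND2 with NQM1, TKL2 and SOL4, and ZWF1 had r of 0.86, 0.84, 0.88 and 0.86 with GND2, NQM1, TKL2 and SOL4. GND1 had r of 0.98 with TKL1, 0.95 with TAL1 and 0.87 with SOL3. Across the pairs r was negative, -0.59 between GND1 and GND2. Ranked by r among the 5720 other genes, NQM1, TKL2 and SOL4 had ranks 5, 6 and 10 for GND2. For GND1, TKL1 had rank 4, TAL1 rank 83 and SOL3 rank 757. For ZWF1, GND2, NQM1, TKL2 and SOL4 had ranks 155, 234, 109 and 144. Many genes outside the pathway were therefore closer to ZWF1 than the minor copies were, and closer to GND1 than SOL3 was. These values describe libraries that share cultures and times, and carry no test.

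**Figure D5:**
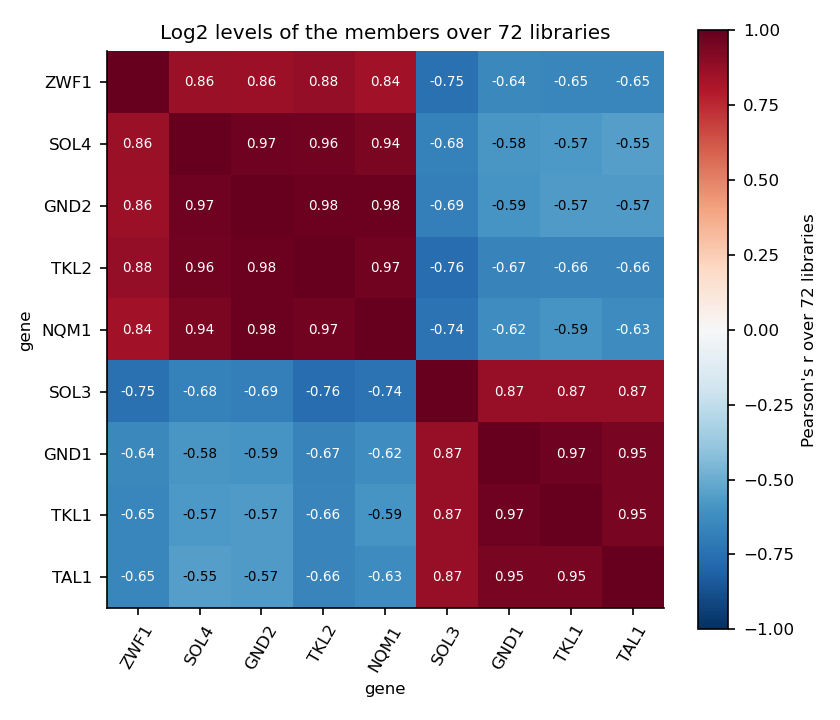
Pearson's r of log2(rescaled TPM + 1) between each 2 of the 9 members over 72 libraries, on a colour scale from -1 to 1. ZWF1 and the minor copies form one block of positive values and the major copies another, with negative values between the blocks.

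Among all other genes tested, the 3 most like each member over the 72 libraries were named by r. For GND2 these were PRX1, a mitochondrial peroxiredoxin, HSP26, a small heat shock chaperone, and RTN2, a reticulon protein, each with r of 0.979. NQM1 was closest to YJR096W (0.984), FMP16 (0.979) and GND2 itself, TKL2 to RTN2 (0.981), CSR2 (0.980) and GND2, and SOL4 to DCS2 (0.983), ECM4 (0.980), a glutathione transferase, and RTN2. ZWF1 was closest to the glucokinase gene GLK1 (0.968), the cytochrome c haem lyase gene CYC3 (0.965) and SOL2 (0.962). The major copies had other neighbours. GND1 was closest to the ribosome-associated chaperone gene SSZ1 (0.983), the Hsp70 gene SSA2 (0.981) and the threonine synthase gene THR4 (0.980). TKL1 was closest to ECM33 (0.985), MSB2 (0.983) and SCP160 (0.981), TAL1 to FRS2 (0.977), a subunit of phenylalanyl-tRNA synthetase, the adenylate kinase gene ADK1 (0.971) and the homocitrate synthase gene LYS21 (0.970), and SOL3 to YLR179C (0.964), EPT1 (0.958) and ELO2 (0.958).

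Of 10 other genes for enzymes that make or use pentose and ribose phosphates, none was called higher in any strain between the early and late windows. Of them, 1 was called lower in wild type and 5 in each mutant, where 14.7%, 40.0% and 34.3% of all genes were called lower, with medians of -0.37, -1.06 and -1.004 (log2) against all-gene medians of 0.05, -0.72 and -0.54. SHB17, sedoheptulose bisphosphatase, fell in all 3 strains, at -1.65 ± 0.39 in wild type. RKI1, ribose 5-phosphate isomerase, had 30.9, 53.2 and 87.4 TPM early and 42.0, 63.3 and 95.6 late in wild type, but 2.91, 6.61 and 12.3 late in the NADH dehydrogenase mutant and 5.12, 8.26 and 16.4 in cox4Δ. Late in the course RKI1 differed from wild type by -3.17 ± 0.26 (adjusted p = 1e-14) and -2.83 ± 0.26 (adjusted p = 3e-13), with no overlap. PRS3, a subunit of phosphoribosyl pyrophosphate synthetase, differed by -1.27 ± 0.16 and -1.23 ± 0.16, lower at 9 of 9 times in each. Under median-of-ratios scaling RKI1 was still called lower, at -2.52 and -2.22, and PRS3 was not, at -0.58 and -0.59.

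Among other sources of NADPH, IDP2, MAE1 and POS5 were called lower than wild type in both mutants late in the course, and ZWF1 was not called there. IDP2, the cytosolic NADP-dependent isocitrate dehydrogenase, had 5.81, 10.8 and 15.4 TPM early and 479, 654 and 934 late in wild type. In the mutants its late values were 36.6 to 67.4 and 42.0 to 60.7 TPM, below every late wild-type point, with differences of -3.73 ± 0.22 (log2, adjusted p = 4.1e-20) and -3.65 ± 0.22 (adjusted p = 9.7e-20). MAE1, the mitochondrial malic enzyme, was lower late in both mutants, at -2.03 ± 0.22 and -2.29 ± 0.22, and so was POS5, the mitochondrial NADH kinase, at -1.24 ± 0.12 and -1.17 ± 0.12. Of this list's 8 genes, 3 were called lower in the NADH dehydrogenase mutant and 4 in cox4Δ in the late window, where 29.4% and 26.3% of all genes were, and none higher. Under median-of-ratios scaling IDP2 (-3.03 and -3.00) and MAE1 (-1.36 and -1.68) were still called and POS5 (-0.56 and -0.54) was not. ALD6, the cytosolic acetaldehyde dehydrogenase, was not called in any comparison. ZWF1 in that window had 490 to 844 TPM in wild type, 409 to 1170 in the NADH dehydrogenase mutant and 372 to 905 in cox4Δ.

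SOL1 and SOL2, homologs of the lactonases with a known role in tRNA biology, rose from early to late in all 3 strains. SOL1 rose by 1.06 ± 0.25 (log2) in wild type, 2.36 ± 0.25 in the NADH dehydrogenase mutant and 2.37 ± 0.25 in cox4Δ, and late in the course it was higher than wild type by 1.37 ± 0.17 (adjusted p = 8.1e-10) and 1.21 ± 0.17 (adjusted p = 2e-08). A list of 5 regulator genes was also read, and whether they act on the 9 members was not tested. Of these, MSN4 rose from early to middle in wild type by 1.46 ± 0.27, with 9.10, 17.7 and 50.4 TPM early and 46.8, 53.0 and 69.5 in the middle window. MSN4 differed from wild type in the middle window by -1.08 ± 0.20 (adjusted p = 6.4e-05) and -1.16 ± 0.20 (adjusted p = 2.7e-05), with no overlap, in the NADH dehydrogenase mutant and cox4Δ. Under median-of-ratios scaling these were -0.73 and -0.90 and not called. MSN2 fell from early to late in all 3 strains, at -1.18 ± 0.31 in wild type. STB5, YAP1 and GIS1 were not called in any comparison.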

How the data were processed

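RNA-seq libraries of 3 yeast strains at 24 times each (72 libraries) were analysed. Per the submitters' processing notes, bcl2fastq 2.20.0.422, Salmon 0.9.1 and the build sacCer3 were used; per the labels' protocols, ribosomal RNA was removed and libraries were stranded. The deposited values were TPM for 5803 genes, floored at 0.1, with 38 to 134 genes per library at that floor. TPM were rescaled to the nominal total of the unit over 5780 nuclear entries; the other 23 held 0.147% to 0.881%. The 5721 genes averaging 1 rescaled TPM or more were fitted on log2(rescaled TPM + 1), a scale that understates changes of low genes, with limma 3.58.1 in R 4.3.3 (trended, robust, 2-sided): windows within a strain with 63 residual degrees of freedom, strains with the time point as a block with 42. Strains are paired by sampling time, so a shift in time between strains cannot be told apart from a change in level. P-values were adjusted by Benjamini-Hochberg over all genes. Ratios of copies were tested by exact permutation, over time points between windows and by sign flips of matched times between strains, adjusted over 52 tests. The model was tested on simulated data.

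The members, lists and motifs were chosen with earlier results of these data known. The genes named were the 9 members, for each the 3 genes highest in Pearson's r over the 72 libraries, and listed genes that were called, by size. The mark set for glucose, the first time from 9 h with HXT3 under 1000 TPM, gave 10 h in cox4Δ (964 TPM), after which HXT3 rose again; the last time at 1000 TPM or more replaced it after the values were seen. Alternatives changed scaling, pseudocount, filter, moderation, block and windows. Sequences came from the RefSeq genome and were read with Biopython 1.88.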

Additional observations from a re-analysis of the deposited data

Results flagged for a closer look

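In each of 81 groups of 7 to 9 time points (9 genes, 3 strains, 3 windows), the highest and lowest points were compared with the others on the log2 scale, and 7 stood apart. Chance alone flags about 1 group in 20, and points of a time course that trends are not independent draws.

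Among the early points the one at 8 h stood above the rest. NQM1 at 8 h had 412 TPM in wild type, next to 35.5 at the nearest other point, and 57.2 TPM in the NADH dehydrogenase mutant, next to 12.3. GND2 at 8 h had 54.8 TPM in the NADH dehydrogenase mutant, next to 11.4. TKL2 at 8 h had 132 TPM in wild type, next to 22.9.

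Among the middle points, the first was low for TKL2 in wild type, with 355 TPM at 9 h next to 762, and for NQM1 in cox4Δ, with 24.7 TPM at 9 h next to 146. NQM1 in wild type had 490 TPM at 16 h (489.5), next to 660 (659.9).

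The change of TKL1 from early to late differed between strains by limma's interaction test, by -1.33 (log2) in the NADH dehydrogenase mutant and -1.17 in cox4Δ against wild type. Both mutants were set against the same wild-type libraries, and neither difference was called under median-of-ratios scaling.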

How the results depend on the processing

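The calls of the 4 minor copies between windows within a strain, and all 24 within-strain ratio tests, kept their direction and their side of the threshold under every alternative run. Of all alternative values, 273 counts of members stayed equal or close, and 668 member differences and 238 ratios kept direction and side. Weaker were 14 counts, 24 member differences and 21 ratios, and stronger were 11, 7 and 1. Direction was reversed in 1 member difference and 4 ratios. The member differences cover chosen members and comparisons, not all.

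With a middle window of 9 to 13 h, 0 members were called lower against early in wild type and in cox4Δ, where TKL1 stood at 0.090 (log2). TKL2:TKL1 in the NADH dehydrogenase mutant against wild type was then -0.14. With a late window of 38 to 58 h, 0 members were called lower from middle to late in wild type.

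Median-of-ratios scaling moved strain calls most. In the late window it called 1 member higher and 0 lower in both mutants, and in the change from early to late 4 higher and 0 lower in both. In the early window it called 0 lower in cox4Δ, as did the fit with no time block and that without 8 h (chosen after seeing the data). With no block, 0 members were called lower in the change from early to late in either mutant, and over all genes 3 instead of 17 were called lower in cox4Δ early. With the late window at 18 to 32 h, 0 were called lower in the NADH dehydrogenase mutant, 2 in cox4Δ and 0 in the cox4Δ change from early to late. At 38 to 58 h, 2 were lower in both mutants, 2 in the NADH dehydrogenase mutant's change, and 1 was higher in that of cox4Δ. TPM as deposited and a pseudocount of 0.1 each called 2 lower in cox4Δ late. Over all genes in the middle window, median-of-ratios scaling called 975 higher and 867 lower instead of 597 and 1589 in the NADH dehydrogenase mutant over time, 862 and 736 instead of 624 and 1040 in cox4Δ, and, against wild type, 105 and 45 instead of 45 and 210 and 51 and 64 instead of 29 and 133.

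Late strain ratios over 18 to 32 h, with fewer points, were 0.40 (NADH dehydrogenase mutant) and 0.25 (cox4Δ) for GND2:GND1, 0.90 and 0.99 for TKL2:TKL1, -0.93 and -0.87 for SOL4:SOL3, and -0.46 for NQM1:TAL1 in the former, none past the threshold. The smallest exact permutation p of so few points gave an adjusted p of 0.051 there. Over 38 to 58 h, where 3 points cannot pass, the same ratios were 1.51 and 1.11, 2.10 and 1.91, -0.090 and -0.023, and -0.62. With no block by time, 4 ratios lost their call: TKL2:TKL1 (-0.71) and NQM1:TAL1 (-1.13) early, and SOL4:SOL3 late (-0.65) in the NADH dehydrogenase mutant, and SOL4:SOL3 late (-0.59) in cox4Δ. Without 8 h the early ratios were -0.44 for TKL2:TKL1 and -0.85 for NQM1:TAL1 in the NADH dehydrogenase mutant and -0.93 for NQM1:TAL1 in cox4Δ. Without 0 h SOL4:SOL3 in the NADH dehydrogenase mutant passed at -0.52. Between the mutants TKL2:TKL1 changed sign at 0.0034 (pseudocount 0.1) and 0.095 (18 to 32 h) and NQM1:TAL1 at 0.0079 (38 to 58 h). Where values or construction show no cause, the cause was not tested. TPM holds no depth, so no counting error could be given.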
